A study of Bos taurus with 6 samples.

Results

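MSR1, ANXA3, BPI and RNASE6 are 4 genes that serve the defence functions of myeloid blood cells, and they are described here in white blood cells of cattle after and before severe cold. They were found as the probe sets whose annotation gives exactly 1 gene symbol, equal to one of these names. Each gene had a single probe set, so they make up 4 of the 12763 probe sets and 4 of the 6337 genes named on the array. The samples came from female heifers of the Sanhe breed, kept partly indoors in a shared cowshed on a mixed ration. The after group holds arrays 1, 2 and 3, from blood after the cold treatment of 3 hours outside at -32 °C and then 15 hours in a cowshed at 5 °C. The before group holds arrays 4, 5 and 6, from blood drawn ahead of that treatment. The design text draws both groups from the same 3 animals out of 30, without stating which samples share an animal or at what hour of the treatment the later blood was taken. The values below are log2 intensities of an Affymetrix bovine array, and a difference (or change) is the mean after minus the mean before cold.

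Myeloid cells, the neutrophils and monocytes of blood, take up and kill microbes. MSR1 is the class A scavenger receptor of macrophages, a surface protein that binds modified lipoproteins and components of bacterial walls. ANXA3 is an annexin, one of a family of proteins that bind membrane phospholipids when calcium rises, and in human neutrophils it is known from the granules. BPI is a granule protein of neutrophils that binds the lipopolysaccharide of Gram-negative bacteria, and RNASE6 is a secreted ribonuclease of the RNase A superfamily with antimicrobial activity described for the human protein. Blood cell RNA is a mixture, so fewer cells of a type and less RNA per cell cannot be told apart in any value below.

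The arrays differed among themselves in ways the groups do not follow. On the main axis of variation, a principal component with 68.4% of the variance, the scores were -23.3, 52.1 and -63.2 on the after arrays, against -1.3, -16.3 and 52.0 on the before arrays. After 2 and before 6 were nearly alike, with a Pearson correlation of 0.995 over probe sets and 4 probe sets more than 2-fold apart. Next came after 1 and before 4, at 0.986 with 107 probe sets more than 2-fold apart, whereas the lowest correlation of any array pair was 0.87. Results are therefore also given without after 2 and before 6. Leukocyte markers gave bright signals, such as S100A8 (neutrophils and monocytes) at a mean of 13.20 and MS4A1 (B cells) at 11.47. HBB (red cells) at 12.02 and PF4 (platelets) at 12.58 were bright too, so RNA of those cells was present beside that of the white blood cells the label names.

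The scavenger receptor gene MSR1 was lower on every after array than on every before array. Its probe set read 4.15, 4.59 and 4.04 on the after 1, 2 and 3 arrays, against 4.65, 5.21 and 4.89 on the before 4, 5 and 6 arrays. The groups did not overlap, but the highest after value (after 2) lay only 0.06 under the lowest before value (before 4). The group means were 4.26 ± 0.29 after and 4.92 ± 0.28 before cold (SD, n = 3 in each group), a change of -0.66 ± 0.28 (SE). In limma this gave an unadjusted p = 0.0465 with a 95% interval of -1.31 to -0.01, and an adjusted p = 1.00 over all probe sets, so MSR1 did not pass the threshold of 0.05. This probe set is dim, since only 6.04% of probe sets had a lower mean. On the linear scale it read 17.7, 24.1 and 16.4 after and 25.2, 37.1 and 29.6 before cold, and no detection calls were used to separate it from background.

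ANXA3, the annexin, had the same ordering with a wider gap and a bright probe set. It read 9.66, 9.93 and 9.67 on the after 1, 2 and 3 arrays, against 10.17, 10.77 and 10.20 on the before 4, 5 and 6 arrays. The after arrays spanned 0.27 and the before arrays 0.60, and 0.24 separated the highest after from the lowest before value. The means were 9.75 ± 0.15 after and 10.38 ± 0.34 before cold (SD, n = 3 in each group), a change of -0.63 ± 0.28 (SE). In limma the unadjusted p was 0.0512, the 95% interval -1.26 to 0.004 and the adjusted p = 1.00. Before 5 stood 0.57 above the next array, and without it the change was -0.43. An exact permutation test of 3 arrays against 3, unpaired and two-sided, gave p = 0.1 for MSR1 and for ANXA3. That is the smallest p this unpaired test allows, and groups that do not overlap always give it. The sharing of animals between the groups did not enter the test.

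BPI, the granule protein, did not follow the groups. Its probe set read 5.66, 5.70 and 7.26 on the after 1, 2 and 3 arrays, against 5.66, 7.06 and 5.32 on the before 4, 5 and 6 arrays. One array of each group, after 3 and before 5, was high, and the other 4 arrays lay at least 1.35 below both. The mean was 6.21 ± 0.91 after and 6.01 ± 0.92 before cold (SD, n = 3 in each group), a change of 0.19 ± 0.57 (SE; limma, unadjusted p = 0.74, adjusted p = 1.00). Its 95% interval ran from -1.11 to 1.5, so changes of over 2-fold in either direction lie inside it. The spread within groups exceeded that of 97.3% of probe sets. Its direction turned to -0.33 without after 3 and to -0.15 without before 6. The probe set is also in the dimmer part of the array, with 24.1% of probe sets below its mean.

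RNASE6, the secreted ribonuclease, was low on a single after array. It read 11.67, 11.72 and 10.45 on the after 1, 2 and 3 arrays, against 11.86, 12.03 and 11.59 on the before 4, 5 and 6 arrays. After 3 lay 1.14 below the next array, while after 1 and after 2 were both above before 6. The mean was 11.28 ± 0.72 after and 11.83 ± 0.22 before cold (SD, n = 3 in each group), a change of -0.54 ± 0.38 (SE; limma, unadjusted p = 0.189, adjusted p = 1.00). Without after 3 the change was -0.13 ± 0.26. Over all probe sets, 35.7% had after 3 as their lowest array, and 1.86% had it lowest by a gap at least as large as that of RNASE6.

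**Figure D1:**
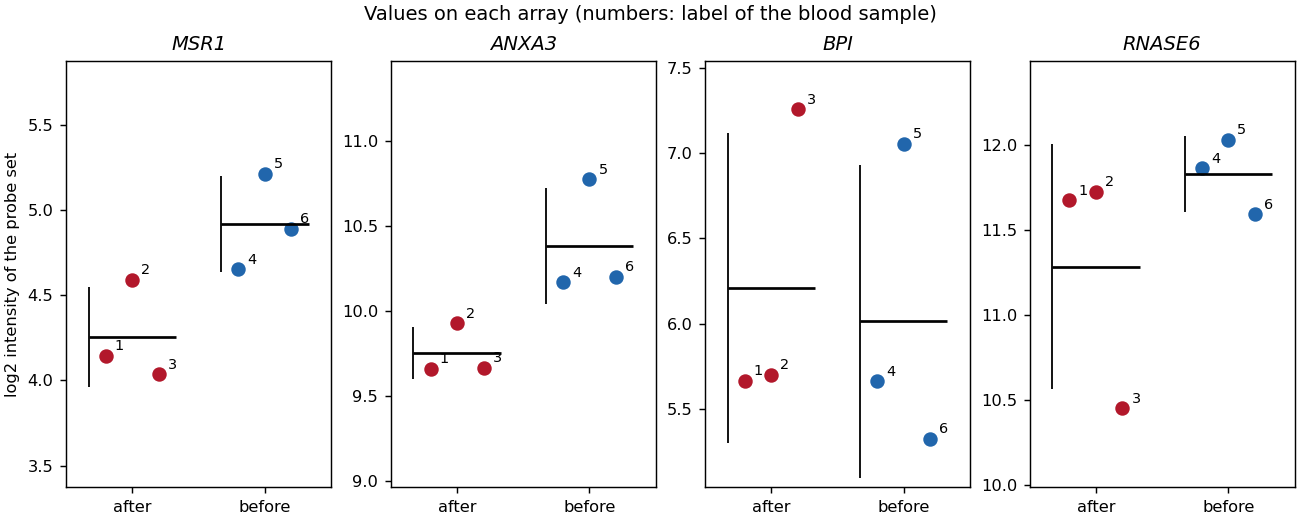
Log2 intensity of the probe sets of MSR1, ANXA3, BPI and RNASE6 on each array, after cold in red and before cold in blue, with the sample number beside each point, the group mean as a horizontal line and 1 SD to each side as a vertical line (n = 3 in each group). All panels have an equal span, and MSR1 and ANXA3 show no overlap, BPI shows a high array in each group (after 3 and before 5), and RNASE6 shows after 3 alone far below the rest.

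Set against the whole array, the adjusted p of 0.05 in limma was passed by 0 of the 4 genes and by 0% of the 12763 probe sets. At an unadjusted p under 0.05 stood 1 of the 4, MSR1, where the share over all probe sets was 0.494%, with 63 probe sets. MSR1 was past that unadjusted threshold in 6 of 19 alternatives, and not with median centring (unadjusted p = 0.0585 in limma), quantile (0.0963) or cyclic loess normalization (0.0701), nor with array weights (0.191). Groups that did not overlap with the after arrays lower were seen in MSR1 and ANXA3, and in 2.31% of all probe sets. A mean at least 1.5-fold lower after cold was seen in the same pair of genes, by 1.58-fold for MSR1 and 1.54-fold for ANXA3, and in 6.81% of all probe sets. A lower mean after cold was found in MSR1, ANXA3 and RNASE6, and in 47.6% of all probe sets. These 4 genes were picked with earlier results of these arrays known, so their counts are a description and not a sign that myeloid defence genes differ from others. A gap between the groups at least as wide as that of ANXA3 was found in 10 probe sets, itself included, and one as wide as that of MSR1 in 138.

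The 9 ways to set an after array against a before array show how much each gene depends on the arrays chosen. MSR1 was lower in 9 of 9, by differences of -1.18 to -0.06, and ANXA3 in 9 of 9, by -1.11 to -0.24. Both counts follow from groups that do not overlap and add nothing to that. RNASE6 was lower in 7 of 9, from -1.58 to 0.13. BPI was lower in 2 of 9, both against before 5, and its differences ran from -1.39 to 1.93. Between after 2 and before 6, the nearly identical arrays, the median absolute difference of a probe set was 0.11. On that pair MSR1 differed by -0.30, ANXA3 by -0.27, BPI by 0.38 and RNASE6 by 0.13, and the share of probe sets with a lower difference was 4.06%, 5.05%, 96.6% and 71.9% in that order. On other pairs the share for MSR1 ran from 2.41% (after 1 against before 5) to 42.4% (after 2 against before 4). That for ANXA3 ran from 2.08% (after 1 against before 5) to 40.9% (after 3 against before 6).

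Without after 2 and before 6, MSR1 differed by -0.84 ± 0.29 (SE; limma, adjusted p = 0.492), ANXA3 by -0.81 ± 0.29 (adjusted p = 0.506), RNASE6 by -0.88 ± 0.41 (adjusted p = 0.55) and BPI by 0.10 ± 0.62 (adjusted p = 0.953). Leaving out each array in turn kept MSR1 between -0.83 and -0.51 and ANXA3 between -0.73 and -0.43. For RNASE6 the same range was -0.76 to -0.13 and for BPI -0.33 to 0.72. Median centring, quantile and cyclic loess normalization also left the after arrays of MSR1 and ANXA3 below all before arrays. Since the groups of these 2 genes do not overlap, leaving out or weighting arrays could not turn their direction. RNASE6, whose groups do overlap, had a lower mean after cold with each array left out, without after 2 and before 6, with array weights and under the 3 normalizations.

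**Figure D2:**
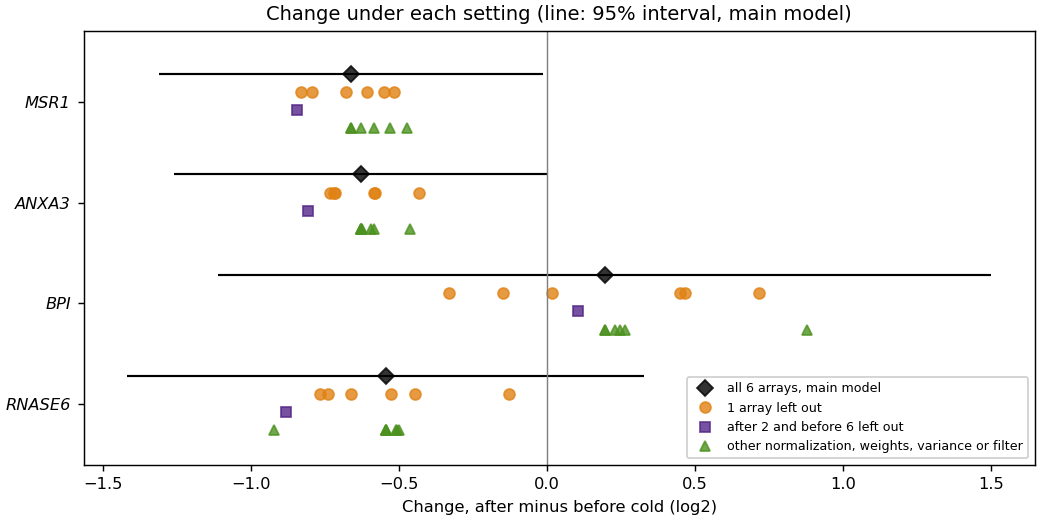
Change after minus before cold on the log2 scale for MSR1, ANXA3, BPI and RNASE6, with the value over all 6 arrays as a black diamond on its 95% interval from limma, and the other symbols giving the change with 1 array left out, with after 2 and before 6 left out, or with other normalization, weights, variance settings or filters. All symbols of MSR1, ANXA3 and RNASE6 lie below 0, and those of BPI fall on both sides.

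Over the 6 arrays MSR1 and ANXA3 resembled each other most among the 4 genes, RNASE6 lay further off and BPI furthest. After each gene was centred on its own mean, the root mean square difference between MSR1 and ANXA3 was 0.12 log2 units. It was 0.36 between MSR1 and RNASE6, 0.40 between ANXA3 and RNASE6, 0.78 between ANXA3 and BPI, 0.88 between MSR1 and BPI, and 1.1 between BPI and RNASE6. The median over all named genes was 0.53 from MSR1, 0.51 from ANXA3, 0.60 from RNASE6 and 0.78 from BPI, so RNASE6 was closer to MSR1 and ANXA3 than the median gene, and BPI was further from all 3 than the median gene was. Of 6333 other named genes, 3 were closer to MSR1 than ANXA3 was, and 1 was closer to ANXA3 than MSR1 was. The points share animals and arrays, so this likeness carries no test.

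The genes closest to MSR1 by this measure were PTPN2, a tyrosine phosphatase, at 0.07, DECR1, a mitochondrial reductase of fatty acid oxidation, at 0.11, and SH3GLB1, a membrane-bending protein, at 0.12. PTPN2 read 5.58, 5.86 and 5.38 after and 6.10, 6.59 and 6.34 before cold, with no overlap and a change of -0.74 ± 0.27 (SE; limma, unadjusted p = 0.0242, adjusted p = 1.00). It was also among the 3 closest to ANXA3, at 0.13, after BCL2L15, a member of the BCL2 family, at 0.10, and CFI, the complement factor I protease, at 0.13. For BPI they were IFITM5 at 0.18, PPP1R3B, which targets a phosphatase to glycogen, at 0.19, and ITPR1, a calcium release channel, at 0.20. IFITM5 shared the high after 3 and before 5 arrays of BPI, with 5.76, 5.47 and 6.82 after and 5.52, 6.66 and 5.17 before cold. For RNASE6 they were LIAS, which makes lipoic acid, at 0.06, ZCCHC17, a zinc finger protein, at 0.06, and EIF2S1, a subunit of a translation initiation factor, at 0.06. Profiles within 0.2 were common around RNASE6, with 206 genes, and fewer around MSR1 with 86, ANXA3 with 37 and BPI with 2. The closest genes were picked by likeness on these same arrays. Their order over the arrays, changes and p-values therefore follow in large part from that choice. Lower values without overlap, as in PTPN2, were seen in 2.31% of all probe sets.

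**Figure D3:**
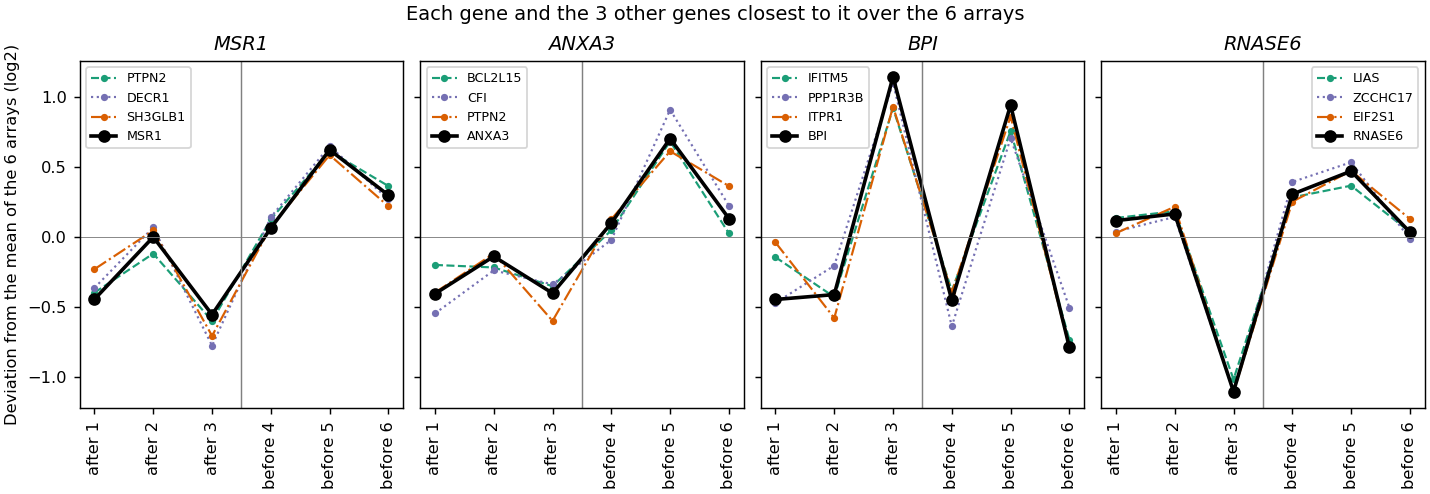
Deviation of each gene from its mean over the 6 arrays (log2), for MSR1, ANXA3, BPI and RNASE6 in black and the 3 other genes closest to each in colour, with the after arrays left of the vertical line and the before arrays right of it. MSR1 and ANXA3 have all 3 after arrays below the 3 before arrays, BPI peaks on after 3 and before 5, and RNASE6 dips on after 3.

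Scavenger and phagocytic receptors other than MSR1 did not share its lower values as a list. Of 28 listed genes 11 had a named probe set, and 0 of them passed in either direction, while 5 had a higher and 6 a lower mean, with a median change of -0.03 beside 0.05 over all 6337 named genes. The nearest to MSR1 in change was OLR1, the receptor for oxidised lipoproteins, at -0.62 ± 0.36 (SE). It read 9.03, 8.57 and 8.01 after and 9.36, 9.51 and 8.61 before cold, so before 6 lay under after 1. FCGR3A, an Fc receptor, differed by -0.61 ± 0.36, and CD68, a lysosomal glycoprotein of macrophages, by -0.26 ± 0.41. FCGR2B, the inhibitory Fc receptor, was the only list gene whose groups did not overlap, which with the after arrays higher was seen in 2.07% of all probe sets, and it had 9.18, 9.27 and 9.35 after against 8.90, 9.05 and 8.87 before cold. It was higher after cold by 0.33 ± 0.24, with an adjusted p = 1.00 in limma. ITGB2, the shared chain of the leukocyte integrins, differed by 0.07 ± 0.26.

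Annexins other than ANXA3 were split into 3 higher and 3 lower, with a median of -0.02, and 0 of the 6 measured passed. ANXA4 came closest to ANXA3 in change, at -0.67 ± 0.32 (SE; limma, unadjusted p = 0.0691, adjusted p = 1.00). Its arrays read 8.22, 9.02 and 8.01 after and 9.05, 8.96 and 9.25 before cold, so after 2 reached into the before range. ANXA2 differed by -0.22 ± 0.40, ANXA6 by 0.21 ± 0.34 and ANXA1, an anti-inflammatory annexin abundant in neutrophils, by -0.08 ± 0.25.

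Neutrophil granule and antimicrobial genes, the group BPI belongs to, had 14 of 47 listed genes measured. None passed (0 of 14, in limma at an adjusted p of 0.05 and at an unadjusted p under 0.05), 10 had a higher and 4 a lower mean, and the median was 0.07. HP, the haemoglobin-binding acute phase protein haptoglobin, read 10.84, 9.40 and 11.07 after and 10.09, 10.75 and 8.12 before cold, a change of 0.79 ± 0.70 (SE). DEFB4A, a beta-defensin, differed by 0.07 ± 0.79 and read 6.97, 5.04 and 6.88 after and 6.57, 7.55 and 4.54 before cold. Both were lowest on before 6 and next lowest on after 2, so they varied widely between arrays without the high pair that marks BPI. LYZ2, a lysozyme whose family has close copies in cattle that a probe set may not separate, was lower on all after arrays, with 12.87, 13.08 and 12.72 against 13.14, 13.30 and 13.22. Its change was -0.33 ± 0.24, and such an ordering was seen in 2.31% of all probe sets. S100A8, a subunit of calprotectin, differed by 0.19 ± 0.30, CYBA, a subunit of the phagocyte oxidase, by 0.33 ± 0.39 and ARG1, arginase, by -0.19 ± 0.26.

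Genes that bind and sense lipopolysaccharide, the ligand of BPI, had 9 of 18 listed members measured, with 3 higher, 6 lower, a median of -0.12 and 0 past the threshold. The kinase IRAK4 differed by -0.49 ± 0.31 (SE), the adaptor TICAM2 by -0.37 ± 0.30, CD180, a Toll-like receptor homologue of B cells, by -0.29 ± 0.33 and the kinase IRAK1 by 0.25 ± 0.32. MYD88, the adaptor shared by most Toll-like receptors, differed by 0.21 ± 0.32. Of the RNase A superfamily and its inhibitor, listed together with RNASET2 of another ribonuclease family, 3 of 17 listed genes were measured and 0 passed. The brain ribonuclease gene BRB differed by -0.51 ± 0.49 and was lowest on after 2 and before 6, at 6.22 and 6.20, and not on after 3 (6.43), where RNASE6 was low. The ribonuclease inhibitor RNH1 differed by 0.34 ± 0.43 and RNASET2 by 0.17 ± 0.29.

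**Figure D4:**
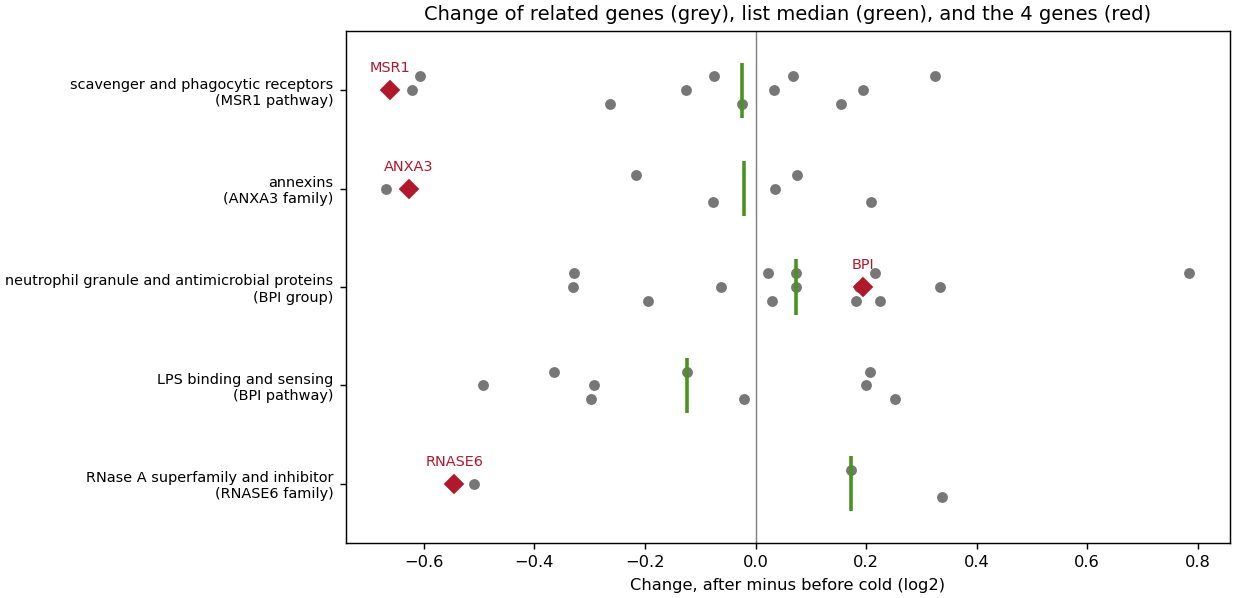
Change after minus before cold (log2) of each measured gene of the 5 related lists as grey points, the list median as a green bar and MSR1, ANXA3, BPI and RNASE6 as red diamonds beside the list each belongs to. The medians lie between -0.12 and 0.17, MSR1 and ANXA3 sit at the low end of their lists, and BPI lies inside its list.

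Markers of blood cell types moved along with some of the array differences. On after 3 and before 5, where BPI was high, the median deviation of 10 monocyte markers was 0.41 and 0.59, against -0.38 to 0.04 on the other 4 arrays. The granule gene list showed 0.44 and 0.32 on these arrays, against -0.32 to 0.06, and 9 neutrophil markers showed 0.17 and 0.29, against -0.19 to 0.004. The summed intensity of the neutrophil markers was 21400 to 26462 after and 18360 to 26913 before cold, and that of the monocyte markers 16568 to 21710 after and 17628 to 26549 before. The granule and neutrophil lists share genes, S100A8 and S100A12 among them. Medians of the B cell markers (0.454 and 0.057) and of the RNase list (0.515 and 0.257) were also higher on after 3 and before 5 than on the other 4 arrays. So was the median of the scavenger and phagocytic receptor list (0.246 and 0.246), although MSR1 itself was lowest on after 3. Over all probe sets, 12.8% had after 3 and before 5 above the other 4, and 0.047% by a gap at least as large as that of BPI. The part of these cell types in the BPI values was not tested. Among the monocyte markers, S100A4, a calcium-binding protein, differed by -0.09 ± 0.26 (SE) and CTSS, a lysosomal protease, by -0.68 ± 0.30 (limma, unadjusted p = 0.0545, adjusted p = 1.00). CTSS did not overlap between groups, with 11.77, 12.11 and 11.21 after and 12.21, 12.58 and 12.34 before cold. It was the only 1 of the 10 monocyte markers without overlap, an ordering seen in 2.31% of all probe sets. Of the 9 neutrophil markers 1 did not overlap, with the after arrays higher, as in 2.07% of all probe sets.

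Before 5, the array with the highest MSR1 and ANXA3, was also the highest for the monocyte markers. Its T cell marker median was the lowest of the arrays, at -0.35, and its platelet median was 0.50, against -0.16 to 0.06 on the other 5 arrays. After 3 was high for the monocyte marker median but low for MSR1, ANXA3 and RNASE6. Single markers of that list differed, as CTSS was lowest on after 3, at 11.21, and CD14, another listed marker, was highest there, at 9.55. Eosinophil, basophil and mast cell markers, 4 measured, had their lowest median on after 3, at -0.66, where RNASE6 was lowest, and their highest on before 4, at 0.48. Their summed intensity was 644 to 1149 after and 879 to 1340 before cold. All 4 of these markers had a lower mean after cold, as had 47.6% of all probe sets. CCR3, an eosinophil chemokine receptor, differed by -0.29 ± 0.31 (SE) and ALOX15, an arachidonate-oxidising enzyme, by -0.82 ± 0.55. ALOX15 and KIT, another listed marker, were lowest on after 3, but CCR3 on before 6 and FCER1A, also listed, on after 2. Over all probe sets, 35.7% had after 3 as their lowest array. The part of these markers in the values of MSR1, ANXA3 and RNASE6 was not tested.

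**Figure D5:**
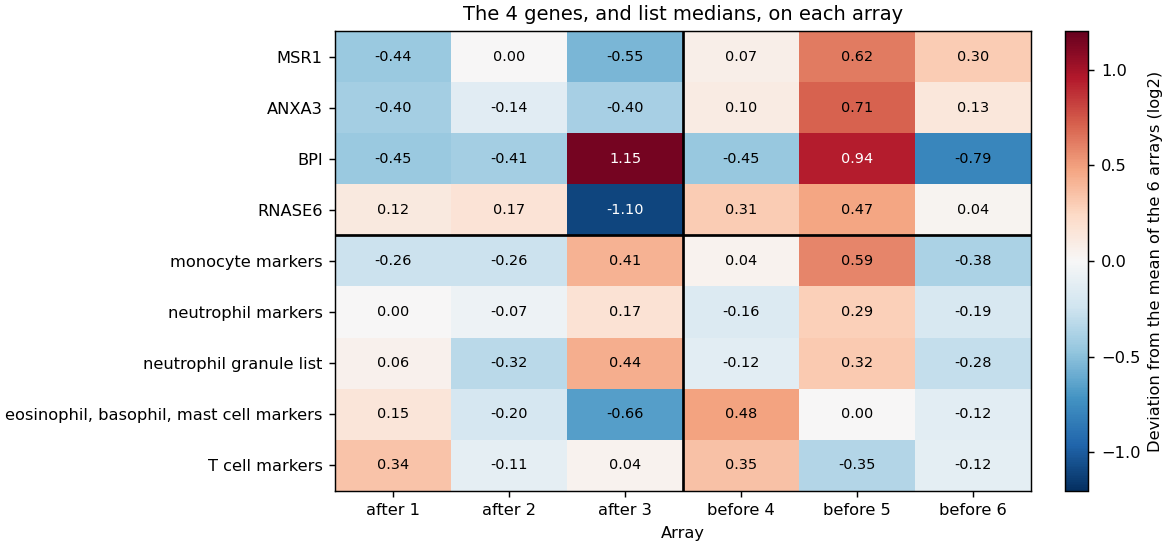
Deviation from the mean of the 6 arrays (log2) on each array, for MSR1, ANXA3, BPI and RNASE6 in the upper rows and as the list median for 5 gene lists in the lower rows, with after arrays left and before arrays right of the vertical line. BPI and the monocyte marker median are both highest on after 3 and before 5, an ordering seen in 12.8% of all probe sets. RNASE6 and the median of the eosinophil, basophil and mast cell markers are both lowest on after 3, as are 35.7% of all probe sets.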

How the data were processed

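Each array has a column of deposited intensity values, linear and already summarised per probe set, and the submitters' processing notes name GCOS and RMA without versions. The background correction, any filter and the genome build were not stated in the sources used here. The log2 of each value was taken with no further normalization and no filter. Intensities ran from 3.91 to 18225, array medians differed by up to 0.24 log2 units, and the number of arrays limits the precision. The platform annotation gave 1 symbol to 8125 probe sets, several to 56 and none to 4582. A listed gene was matched by its current symbol and represented by its probe set with the highest mean. Groups came from the labels, and after was compared with before cold by limma 3.58.1 in R 4.3.3 over all 12763 probe sets, without a block, two-sided, with Benjamini-Hochberg adjustment. The code was tested on simulated data. Nothing says which samples share an animal, so p-values measure the spread between these arrays only. Named beside the 4 genes were the 3 genes closest to each, up to 4 genes with the smallest p and the brightest gene of each related list, and the brightest 2 of each marker list, of which part is printed. DEFB4A, ALOX15, KIT, CD14 and the genomic neighbours fall outside this rule and were chosen after their values were seen. The 4 genes and the 14 lists were chosen with earlier results of these data known. Tried as alternatives were leaving out the dimmest 25% or 50%, a variance trend, robust variance, array weights, 3 normalizations, leaving out arrays, and each of the 6 possible matchings of samples as a block.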

Additional observations from a re-analysis of the deposited data

How the results depend on the processing

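Under each alternative run, 0 probe sets were past the adjusted threshold of 0.05 in limma. Against the 63 with an unadjusted p under 0.05, normalizing by median centring gave 109, by quantiles 100 and by cyclic loess 102. There were 27 when the dimmest 50% were left out, 662 when arrays were weighted, 1234 without after 2 and before 6, and 5 to 1787 on leaving out each array in turn, with 1787 without after 2, 5 without after 3 and 10 without before 5. The array weights did not converge and ran from 0.002 for after 1 to 30.7 for before 4. With them MSR1 differed by -0.47 (limma, unadjusted p = 0.191), ANXA3 by -0.46 (0.196), RNASE6 by -0.92 (0.0276) and BPI by 0.88 (0.221). BPI turned to -0.33 without after 3 and -0.15 without before 6, in a range of -0.33 to 0.72 over the arrays left out in turn. The direction of MSR1 and ANXA3 could turn only under the 3 normalizations, where it did not, since their groups do not overlap and the matchings, variance settings and dim filters leave the estimate as it is. The unadjusted call of MSR1 held in 6 of 19 alternatives. With a block for matched samples the count was 33 (1-4, 2-5, 3-6), 1168 (1-4, 2-6, 3-5), 24 (1-5, 2-4, 3-6) and 656 (1-5, 2-6, 3-4), and within 1.5 times of 63 for the other two matchings. Over the 6 matchings the limma unadjusted p ran from 0.0154 to 0.132 for MSR1, 0.017 to 0.143 for ANXA3, 0.119 to 0.231 for RNASE6 and 0.26 to 0.763 for BPI. The lowest SE of BPI over the matchings, 0.16, came with 1-4, 2-6, 3-5. The true matching is not stated. For these shifts the cause was not tested. The dim filters removed MSR1 and BPI, and a mean over probe sets was not run since each gene has a single one. What dim signal limits was not tested.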

Other observations

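Lymphocyte genes in the same blood samples did not pass the test either. T cell markers had 15 measured genes, 9 higher and 6 lower after cold, with a median change of 0.09. CD247, a signalling chain of the T cell receptor complex, differed by -0.19 ± 0.31 (SE), and the transcription factor TCF7 by 0.05 ± 0.32. B cell markers had 5 measured, 3 higher and 2 lower, with a median of 0.18, and MS4A1, the CD20 antigen, differed by -0.19 ± 0.30. In 2 of these 5 the groups did not overlap, with the after arrays higher, as in 2.07% of all probe sets. NK and cytotoxic markers had 9 measured, 7 higher and 2 lower, with a median of 0.18, with GNLY, a lytic granule protein, at 0.16 ± 0.45. In 1 of these 9 the groups did not overlap, with the after arrays lower, as in 2.31% of all probe sets. Of the gamma delta T cell markers 2 were measured, CD163L1 at 0.02 ± 0.27 and BLK at 0.04 ± 0.34. Platelet markers had 3 measured with a median of -0.10, and red cell markers 6 with a median of 0.07. Monocyte markers had 3 of 10 higher (median -0.14) and neutrophil markers 5 of 9 (median 0.07). In limma, 0 of these genes passed an adjusted p of 0.05 and 0 an unadjusted p under 0.05.

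Few genes beside the 4 on the RefSeq assembly ARS-UCD2.0 had a named probe set, among the 3 protein-coding genes to each side. TGM2, a transglutaminase lying next but one to BPI, differed by 0.16 ± 0.32 (SE) and was lowest on after 2 and before 6, at 6.92 and 6.87. CNOT6L, the third gene from ANXA3, differed by -0.44 ± 0.49, and MICU3, next but one to MSR1, by 0.01 ± 0.26. The gene directly beside BPI was LBP, which encodes another protein that binds lipopolysaccharide, and RNASE6 lay beside RNASE4 and ANG, further ribonucleases. These neighbours had no probe set with their symbol alone and are not analysed here.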
